A study of Mus musculus with 8 samples.

Results

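The small leucine-rich proteoglycans (SLRPs) are secreted matrix proteins built around leucine-rich repeats, and 10 of their genes were followed here across the cell types of adult mouse long bone: Dcn (decorin), Bgn (biglycan) and Aspn (asporin) of class I, Fmod (fibromodulin), Lum (lumican), Omd (osteomodulin, also called osteoadherin) and Prelp of class II, Ogn (osteoglycin, also called mimecan) and Epyc (epiphycan) of class III, and Chad (chondroadherin) of class IV. The members were chosen by gene symbol, and all 10 were found in the gene list of all 8 matrices, out of 32285 genes. Cells came from the femurs and tibiae of 8 female mice, 1 library per mouse and 2 mice in each of 4 groups. Controls carried the floxed alleles Sox4 fl/fl, Sox11 fl/fl and Sox12 fl/fl without Cre and were 7 or 13 weeks old. SOXCOsxCre mutants of the same ages carried these alleles with OsxCre, a Cre that the promoter of the osteoblast gene Osx (Sp7) drives unless doxycycline is given, and doxycycline food kept it silent until about weaning. Mutants and controls were sisters from the same litters, but the labels do not say which mice were sisters. Every mouse was thus homozygous for all floxed alleles, and the presence of Cre and the loss of the SOXC genes (Sox4, Sox11 and Sox12, which encode closely related transcription factors) cannot be told apart in these groups. Periosteum had been removed and marrow flushed out before digestion, and cells with blood-lineage surface markers had been depleted with magnetic beads, so the shares of cell types are those of the digest and not of the bone.

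SLRPs bind fibrillar collagens and shape the width and spacing of fibrils, and several of them bind growth factors such as TGF-β and BMPs or cell-surface receptors. Class I members other than asporin carry chondroitin or dermatan sulphate chains, and several class II members carry keratan sulphate or sulphated tyrosines. In skeletal tissue decorin and biglycan are abundant in bone matrix, osteomodulin is known as a bone matrix protein that binds hydroxyapatite and integrins, and epiphycan and chondroadherin are known from cartilage.

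The members lie in 5 places of the genome (GRCm38, the assembly also named mm10), and 3 of these hold more than 1 member. Aspn (chr13:49544443-49567565), Omd (chr13:49582462-49592822) and Ogn (chr13:49608046-49624501) lie head to tail on the plus strand within 80059 bp, with gaps of 14896 bp and 15223 bp, and all 3 sit inside the span of Cenpp, which is on the minus strand and shares 7 exonic bases with Aspn and 0 with Omd or Ogn. Dcn (chr10:97479609-97518143), Lum (chr10:97565128-97572703) and Epyc (chr10:97644068-97682454) are on the plus strand of chromosome 10, with gaps of 46984 bp and 71364 bp. Prelp (chr1:133910304-133921414, minus strand) and Fmod (chr1:134037254-134048277, plus strand) share chromosome 1, Chad (chr11:94565047-94569127, plus strand) lies inside Acsf2 without a shared exonic base, and Bgn is at chrX:73483602-73495933.

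The 250 bases before the annotated start were read for the chromosome 13 trio, because it holds both genes that differed by genotype over both ages, and for Epyc, because its starts alone held the core sequence that SOX proteins bind. All are plus-strand sequences from RefSeq on GRCm38.p6. Capitals mark each match to ACAAAG or ACAATG on either strand (CTTTGT or CATTGT when read on the plus strand).
Aspn, chr13:49544193-49544442: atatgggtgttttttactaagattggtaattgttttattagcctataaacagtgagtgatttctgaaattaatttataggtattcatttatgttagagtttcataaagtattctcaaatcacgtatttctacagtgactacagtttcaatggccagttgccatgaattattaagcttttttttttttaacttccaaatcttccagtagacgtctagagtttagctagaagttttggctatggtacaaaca
Omd, chr13:49582212-49582461: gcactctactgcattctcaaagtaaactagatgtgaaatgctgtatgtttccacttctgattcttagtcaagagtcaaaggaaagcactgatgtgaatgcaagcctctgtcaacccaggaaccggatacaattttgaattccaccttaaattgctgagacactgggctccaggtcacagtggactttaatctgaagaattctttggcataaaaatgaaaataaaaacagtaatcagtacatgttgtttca
Ogn, chr13:49607765-49608014: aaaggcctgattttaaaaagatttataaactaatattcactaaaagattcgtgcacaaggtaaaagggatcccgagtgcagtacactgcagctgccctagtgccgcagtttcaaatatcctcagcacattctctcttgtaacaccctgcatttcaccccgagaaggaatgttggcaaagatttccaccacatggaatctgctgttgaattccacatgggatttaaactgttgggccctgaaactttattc
Epyc, chr10:97646853-97647102: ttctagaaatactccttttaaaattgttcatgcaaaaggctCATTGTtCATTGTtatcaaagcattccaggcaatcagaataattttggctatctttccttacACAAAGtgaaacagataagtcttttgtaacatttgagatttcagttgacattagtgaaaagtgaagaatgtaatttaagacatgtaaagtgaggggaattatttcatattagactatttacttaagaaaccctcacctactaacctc
The windows of Aspn, Omd and Ogn held 0 matches and this Epyc window held 3. It lies before a start inside the Epyc span given above. The Epyc window just before that span (chr10:97643818-97644067) held 1 match. Of the 10 members, 8 had a start in the table (Dcn and Lum had none), which gave 9 windows, and the 2 windows with a match were both of Epyc. For comparison, 25.2% of all 32851 windows of this length held at least 1 of both motifs, 16.5% the first and 10.7% the second. A match is a match of letters and not a measured binding site.

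The libraries held 12086 to 14151 barcodes, and the replicate 1 libraries (127864255 to 156090286 UMIs) were deeper than the replicate 2 libraries (81894604 to 89283370 UMIs) in every group. After filters 6410 to 8753 cells per mouse were kept, pairs of libraries shared 9 to 24 kept barcodes, and clusters of very low depth, set aside from the comparisons, held 5.69% to 26.7% of kept cells, with the highest shares in the replicate 1 libraries. The targeted gene was checked first. In osteoblast-like (OB-like) cells Sox4 was at 183 ± 16.6 CPM (UMIs per 1000000 UMIs of that cell type after TMM scaling, mean ± SD, n = 4 mice) in controls and 61.1 ± 12.1 CPM in mutants, a log2 fold change of -1.59 (adjusted p = 7.28e-04, edgeR). Sox4 was also lower in preosteoblast-like (preOB-like) cells (279 against 107 CPM), Lepr+ osteoprogenitor-like (Lepr+ OP-like) cells (316 against 120 CPM) and Lepr+ mesenchymal stromal cell-like (Lepr+ MSC-like) cells (403 against 166 CPM).

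Cells were grouped without using the members, other SLRP genes or the SOXC genes, and 11 cell types with marker support were kept. The largest was OB-like with 26488 cells in 8 clusters. The others of the bone lineage were preOB-like (1007 cells), Lepr+ OP-like (3458) and Lepr+ MSC-like (4023), and the growth plate gave growth plate chondrocyte-like (GPC-like, 1720) and hypertrophic GPC-like cells (2754). A small Col3a1+ Igfbp6+ stromal cluster (434 cells, 9 to 161 per mouse) held 13 of 14 markers of Sca1+ MSCs but went unnamed by the naming rule, and its 9-cell library, control 7 weeks replicate 1, was left out of its values. Pericyte-like (883), endothelial-like (3507), haematopoietic progenitor-like (1837) and granulocyte or monocyte-like (1008) cells completed the set. The preOB-like cluster held all 14 preosteoblast markers, but the Lepr+ OP list scored higher in it. It was named preOB-like because it held too few Lepr+ MSC markers for the Lepr+ OP name. With finer clusters a cluster of 1017 cells held all 14 preosteoblast and 10 of 15 Lepr+ MSC markers and was named Lepr+ OP-like. The haematopoietic progenitor-like cells served as a gauge of free RNA, since they are not a source of matrix. Shallower blood clusters held more Dcn, Lum and Chad. Pooled over all mice and without TMM scaling, these were at 344, 193 and 19.5 CPM in B cell-like cells. Prelp, Aspn and Epyc were lower there, at 2.09, 0.696 and 0 CPM, against 3.34, 1.27 and 2.04 CPM in control haematopoietic progenitor-like cells. Dcn, Lum and Chad were at 1248, 496 and 181 CPM in the largest cluster led by erythroid genes. The median depth of a cell, as a percentage of that of its library, was 82.4% in haematopoietic progenitor-like, 55.4% in Lepr+ MSC-like, 36.5% in B cell-like and 6.84% in these erythroid cells. The gauge may therefore be low for shallow types.

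The members divided the skeletal cell types among them in the 4 control mice. Dcn was high from preOB-like to OB-like cells, Bgn was spread over all stromal, bone and cartilage types, Omd was highest in preOB-like cells, Ogn in stromal and Lepr+ cells and almost absent from OB-like cells, Aspn in Col3a1+ stromal and pericyte-like cells, and Epyc and Chad in growth plate cells alone. Since cell types were defined from the same cells, these levels are a description and carry no test.

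**Figure D1:**
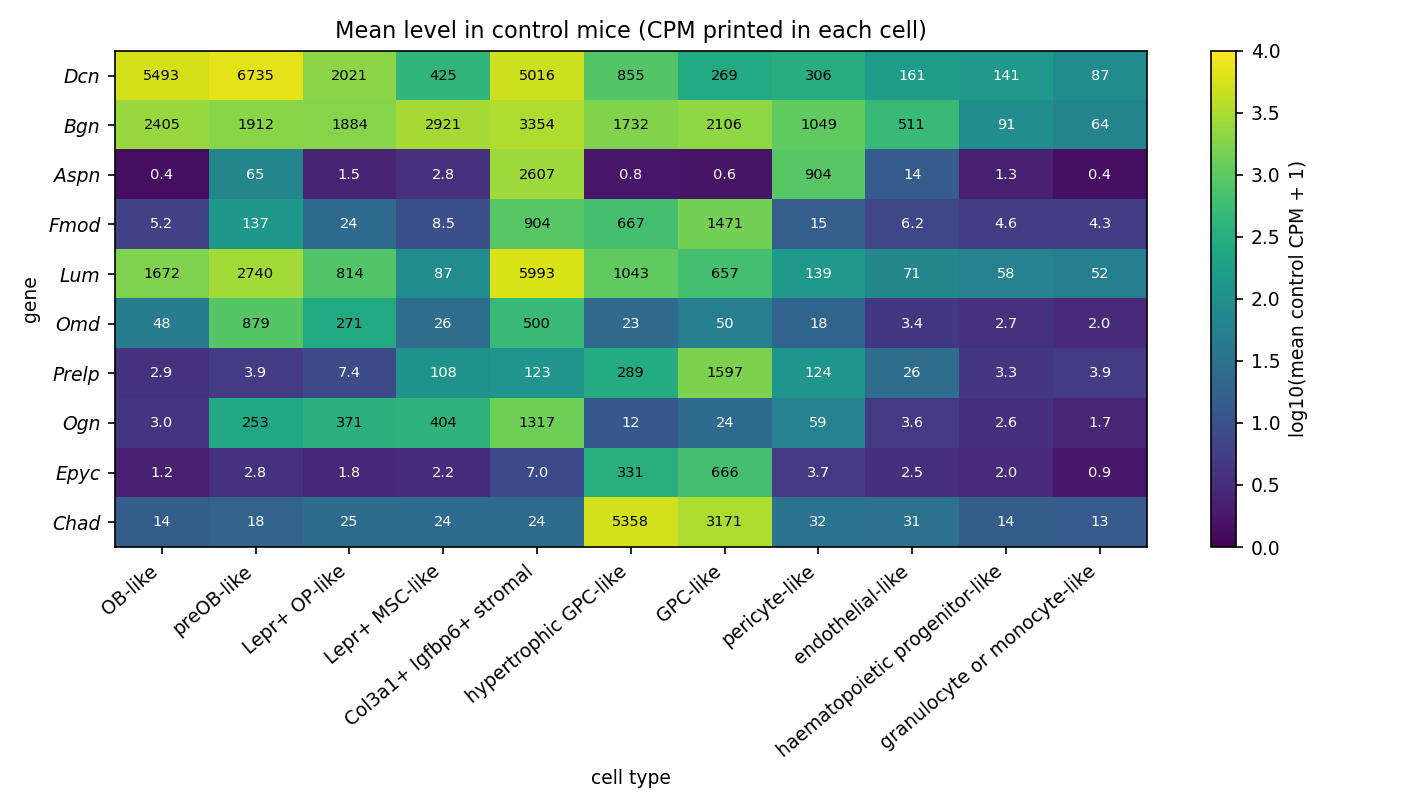
Mean level in control mice (CPM, logarithmic colour scale) of the 10 SLRP genes (rows) in 11 cell types (columns); each cell of the grid prints its mean over 4 mice, or 3 for the Col3a1+ Igfbp6+ stromal type. Chad at 5358 and 3171 CPM and Epyc at 331 and 666 CPM stand out in the hypertrophic and the other GPC-like type, and Aspn at 2607 and 904 CPM in Col3a1+ stromal and pericyte-like cells.

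Of class I, Dcn reached 6735 ± 873 CPM in preOB-like cells (n = 4), and its lowest control mouse there (6112 CPM) lay above the highest in OB-like cells (5773 CPM). OB-like cells (5493 ± 331 CPM) and Col3a1+ stromal cells (5016 ± 1843 CPM, n = 3) overlapped. Lepr+ OP-like cells followed at 2021 ± 419 CPM without overlap, then hypertrophic GPC-like cells at 855 ± 356 CPM and Lepr+ MSC-like cells at 425 ± 76.7 CPM. The haematopoietic progenitor-like level was 141 ± 56.2 CPM, so the endothelial-like level of 161 ± 37.4 CPM is not above the background.

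Bgn, whose product is a close relative of decorin, was above 1000 CPM in every stromal, bone, cartilage and pericyte-like type. Its means ran from 3354 ± 1288 CPM in Col3a1+ stromal and 2921 ± 485 CPM in Lepr+ MSC-like cells, through 2405 ± 205 CPM in OB-like cells, to 1732 ± 248 CPM in hypertrophic GPC-like cells, and each of the 7 types in this span overlapped the next. Pericyte-like cells (1049 ± 212 CPM) and endothelial-like cells (511 ± 102 CPM) came after them without overlap, and haematopoietic progenitor-like cells were at 90.5 ± 21.6 CPM.

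Aspn, whose product competes with decorin for collagen, was held by few types. It was at 2607 ± 1160 CPM in Col3a1+ stromal cells and 904 ± 100 CPM in pericyte-like cells, then at 65.4 ± 38.1 CPM in preOB-like and 13.8 ± 6.23 CPM in endothelial-like cells, with no overlap at any of these steps. In Lepr+ MSC-like cells it was at 2.76 ± 0.81 CPM and in OB-like cells at 0.387 ± 0.115 CPM, against 1.27 ± 1.37 CPM in haematopoietic progenitor-like cells. After each cell was thinned to 2000 UMIs, 79.3% of Col3a1+ stromal cells and 79.9% of pericyte-like cells held an Aspn UMI, against 7.47% of preOB-like and 0.793% of haematopoietic progenitor-like cells.

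Of class II, Omd, which is bound to mineral and matrix in bone, was highest not in OB-like but in preOB-like cells, at 879 ± 343 CPM, followed by Col3a1+ stromal (500 ± 288 CPM) and Lepr+ OP-like cells (271 ± 83.3 CPM). Neighbours among these 3 types overlapped. Without integration the preOB-like mean was 414 CPM. In the main clusters Omd dropped without overlap to 50.2 ± 34.0 CPM in GPC-like and 48.2 ± 23.6 CPM in OB-like cells. It was at 2.67 ± 2.10 CPM in haematopoietic progenitor-like cells. The share of thinned cells with an Omd UMI was 63.5% in preOB-like, 29.6% in Lepr+ OP-like, 7.47% in OB-like and 0% in haematopoietic progenitor-like cells.

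Lum, which binds collagen at the same site as fibromodulin, was highest in Col3a1+ stromal cells but with a wide spread (1712 to 12312 CPM over 3 mice). It was at 2740 ± 455 CPM in preOB-like and 1672 ± 437 CPM in OB-like cells, whose ranges overlapped, and at 1043 ± 173 CPM in hypertrophic GPC-like cells. In Lepr+ MSC-like cells it was at 86.8 ± 33.9 CPM, close to the 57.9 ± 16.8 CPM of haematopoietic progenitor-like cells.

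Fmod and Prelp were led by cartilage. Fmod was at 1471 ± 285 CPM in GPC-like, 667 ± 278 CPM in hypertrophic GPC-like and 137 ± 59.9 CPM in preOB-like cells, whereas in OB-like cells it was at 5.25 ± 1.95 CPM against 4.61 ± 2.14 CPM in haematopoietic progenitor-like cells. In the Col3a1+ stromal type single control mice gave 10.8, 496 and 2204 CPM, the first from 1 UMI in 14 cells. Prelp, whose product links basement membranes to collagen, was at 1597 ± 354 CPM in GPC-like cells, 289 ± 65.5 CPM in hypertrophic GPC-like cells and 124 ± 50.5 CPM in pericyte-like cells. In Lepr+ MSC-like cells it was at 108 ± 46.5 CPM and in OB-like cells at 2.86 ± 1.07 CPM.

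Of class III, Ogn was at 1317 ± 417 CPM in Col3a1+ stromal cells and at 404 ± 88.2, 371 ± 68.0 and 253 ± 82.3 CPM in Lepr+ MSC-, Lepr+ OP- and preOB-like cells, which overlapped in this order. In OB-like cells it was at 3.03 ± 0.854 CPM against 2.61 ± 1.66 CPM in haematopoietic progenitor-like cells. Within the OB-like clusters, cluster 6, whose leading genes include Postn and Spp1, held 15.8 ± 5.54 CPM and the other clusters 3.77 CPM or less. Epyc was at 666 ± 122 CPM in GPC-like and 331 ± 65.3 CPM in hypertrophic GPC-like cells without overlap, and at 7.04 CPM or less elsewhere.

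Chad of class IV, whose product binds collagen and integrins of chondrocytes, was at 5358 ± 2268 CPM in hypertrophic GPC-like and 3171 ± 1701 CPM in GPC-like cells. The control means of all other types lay between 12.9 and 32.4 CPM, with 13.9 ± 9.54 CPM in haematopoietic progenitor-like and 13.9 ± 6.94 CPM in OB-like cells. In Col3a1+ stromal cells the mutants were at 29.8 to 254 CPM and the controls at 21.5 to 25.8 CPM, without overlap, and the log2 fold change was 2.27 ± 0.67 (adjusted p = 0.6, and 2.31 and 0.00648 with the replicate block, in a type where mice shared only a number). The controls held 12 Chad UMIs in all, and the 7-week controls were 1 mouse.

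Several members shared their order of types. Over the 11 control means on a log2 scale, Pearson's r was 0.983 between Epyc and Chad, 0.907 between Dcn and Lum, 0.873 between Dcn and Omd and 0.865 between Lum and Omd, and lowest between Aspn and Chad at -0.256. The genes nearest to each member among 9337 expressed genes were Ccn4, Scrn1 and Creb3l1 for Dcn (r = 0.96, 0.96 and 0.95), Ryk, Fam114a1 and Arfip1 for Bgn, Anpep, Cd248 and Col3a1 for Aspn, Cib2, Sertad4 and Thbs3 for Fmod, Smoc2, Gxylt2 and Arhgef19 for Lum, Whrn, Slc22a17 and Gask1a for Omd, Nckap5, Pex14 and Mgp for Prelp, Mdk, Cpxm1 and Loxl1 for Ogn, Serpina1a, Slc38a3 and Serpina1b for Epyc, and Snorc, Hapln1 and Il17b for Chad. All of these points come from the same 4 control libraries (3 for the Col3a1+ stromal type) and share their depth, and the values are a description over cell types.

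Genotype was then compared within each of the 9 non-haematopoietic types by summing UMIs per mouse, which gave 80 fits of a member in a type after the filter on low counts. Over both ages 2 members were called at an adjusted p of at most 0.05, both higher in mutants: Omd in OB-like cells and Aspn in preOB-like cells. With replicate number as a block 8 were called: 3 in OB-like, 3 in Lepr+ MSC-like and 1 each in preOB-like and Col3a1+ stromal cells, where that fit called 8.44%, 1.07%, 1.49% and 1.39% of all genes. The background without the block was 1.36% of genes called in OB-like, 0.519% in preOB-like, 1.11% in Lepr+ OP-like, 0.173% in Lepr+ MSC-like and 0.00919% in GPC-like cells, and 0% in the other 4 types. The unadjusted p was under 0.05 in 13 of the 80 fits, against 6.24% of the fits of all genes in these types, and DESeq2 called 2 as well, though not the same pair. Each side was 4 mice, 2 at each age, and the tests weigh a difference against the spread among mice of the same group. Without the block that spread also holds any difference that goes with replicate number, such as depth.

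**Figure D2:**
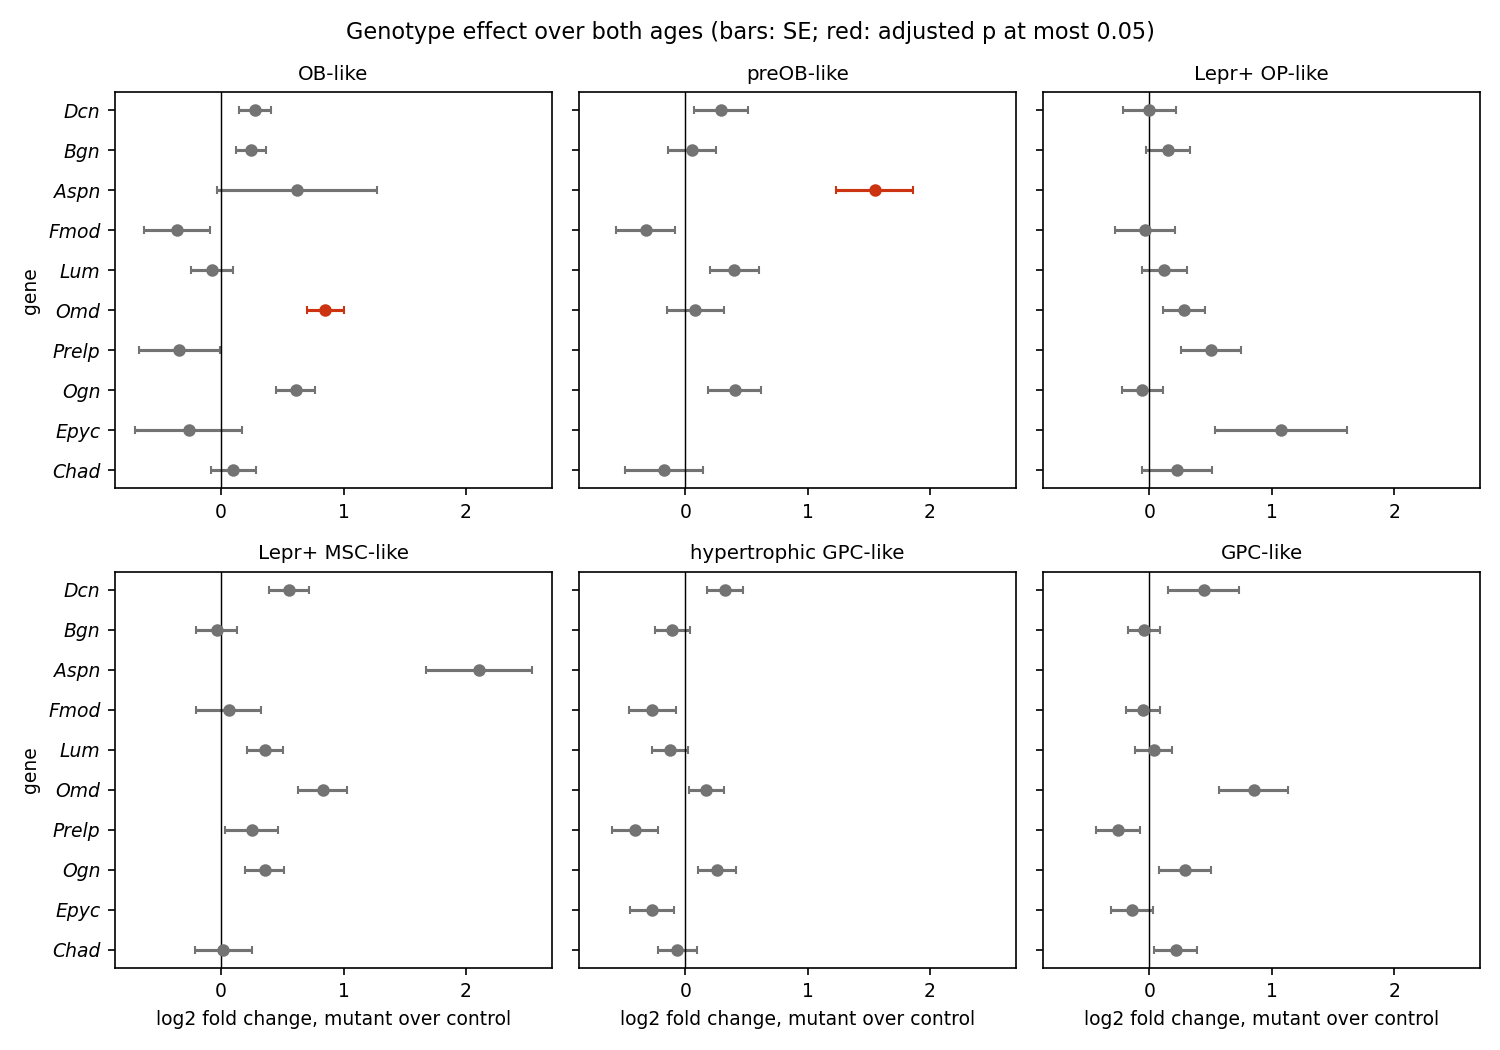
Log2 fold change of mutants over controls across both ages (x axis) for each SLRP gene (y axis) in 6 cell types, with bars for the standard error and red points for an adjusted p of at most 0.05. Omd in OB-like cells (0.85) and Aspn in preOB-like cells (1.55) are the red points; genes that failed the filter on low counts have no point.

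Omd rose in mutant OB-like cells. In OB-like cells the control mice were at 50.1 and 80.9 CPM at 7 weeks and at 30.6 and 31.2 CPM at 13 weeks, and the mutants at 74.0 and 93.2 CPM at 7 weeks and at 85.2 and 72.5 CPM at 13 weeks. The mutant was higher in 4 of 4 pairs of mice with the same age and number, the groups overlapped at 7 weeks, and at 13 weeks both mutants lay above both controls. The log2 fold change over both ages was 0.85 ± 0.15 (SE, adjusted p = 0.028, edgeR), and 0.87 (adjusted p = 2.06e-04) with replicate number as a block. At 13 weeks alone it was 1.35 ± 0.22 (adjusted p = 0.0418, against a background of 0.28% of genes), and at 7 weeks 0.35 ± 0.21 (adjusted p = 1). The difference between the ages was 1.00 ± 0.30 on the log2 scale and was not called (adjusted p = 1). The call over both ages was lost without mutant 7 weeks replicate 2 (0.77, adjusted p = 0.0901), control 13 weeks replicate 1 (0.84, 0.0913), control 13 weeks replicate 2 (0.87, 0.065) or mutant 13 weeks replicate 1 (0.79, 0.118), and the 13-week call was lost without any of the 4 mice of that age (adjusted p from 0.0921 to 0.336).

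**Figure D3:**
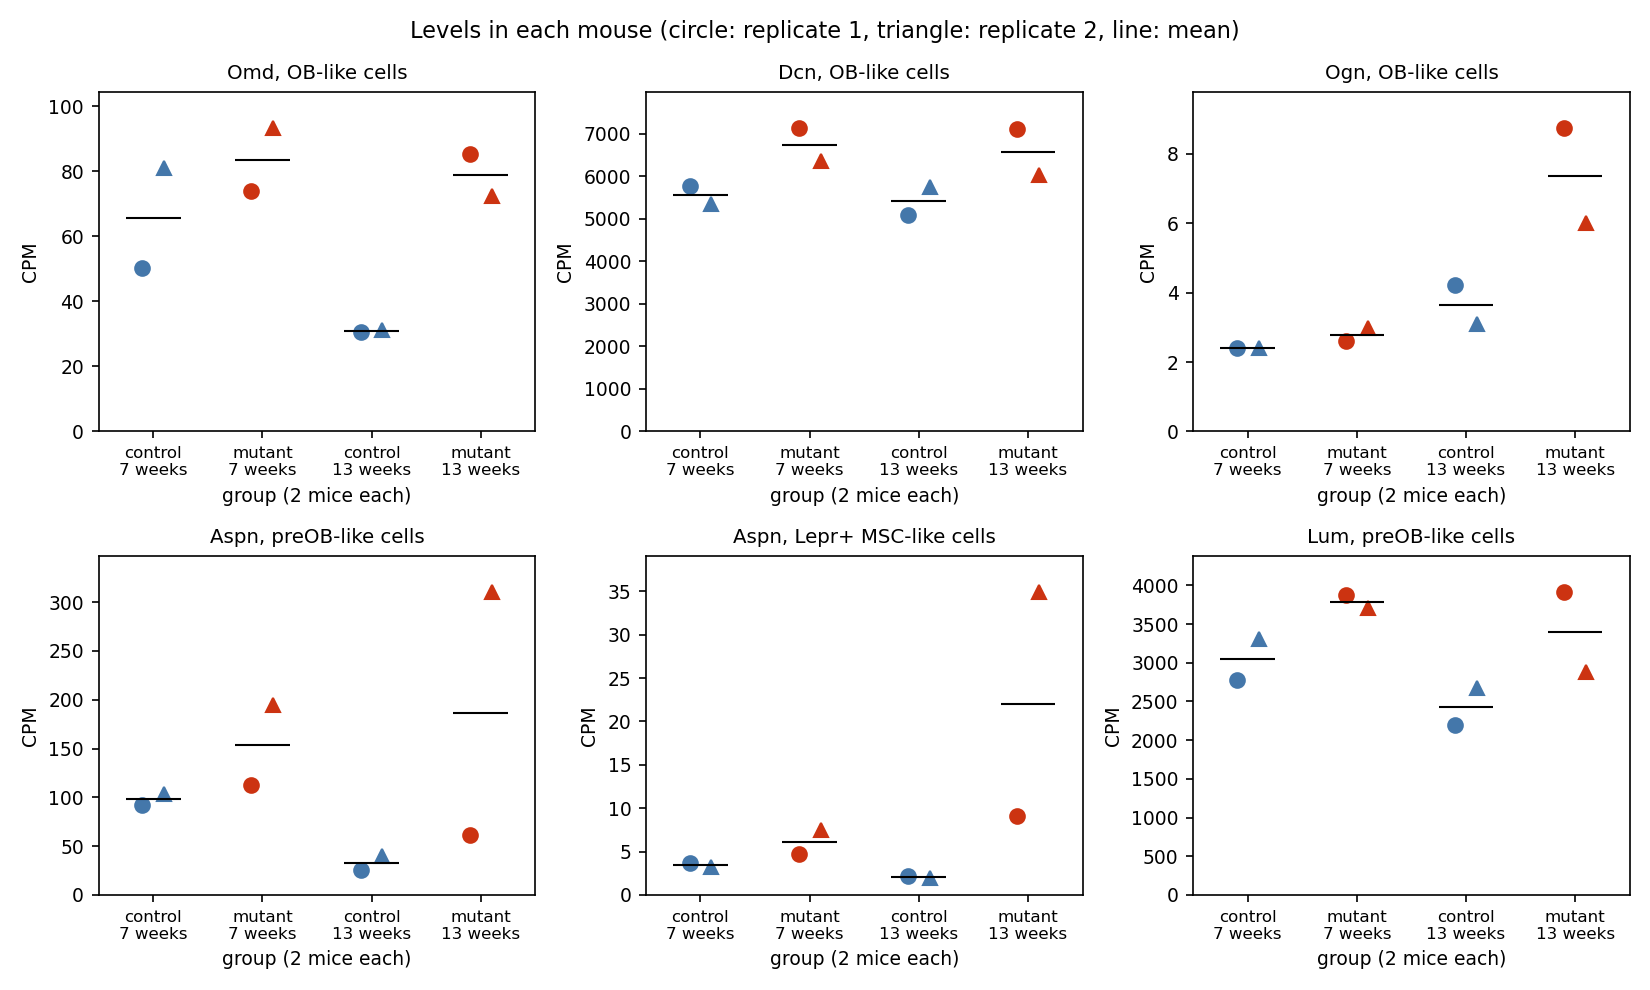
Level in each mouse (CPM, y axis from 0) in the 4 groups of 2 mice, with circles for replicate 1, triangles for replicate 2 and a line at the mean, for Omd, Dcn and Ogn in OB-like, Aspn and Lum in preOB-like, and Aspn in Lepr+ MSC-like cells. Omd at 13 weeks separates the controls at 30.6 and 31.2 CPM from the mutants at 85.2 and 72.5 CPM, and the highest Aspn value in Lepr+ MSC-like cells, 34.9 CPM, is a single mouse.

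Among the 8 OB-like clusters Omd was called in 4, and its log2 fold change was above 0 in all 8. Its control level varied among them, from 20.3 ± 10.98 CPM in cluster 5 to 154 ± 106 CPM in cluster 6. The log2 fold change over both ages was 0.73 in cluster 0 (adjusted p = 0.028), 0.98 in cluster 1 (0.0169), 1.06 in cluster 2 (0.0198) and 1.02 in cluster 17 (0.0164), where 0.954%, 0.999%, 0.891% and 0.517% of genes were called. It was 0.97, 0.63, 0.83 and 0.68 in clusters 5, 6, 9 and 29 (adjusted p = 0.0896, 0.136, 0.436 and 0.959), where 0.956%, 1%, 0.154% and 0.122% of genes were called. Cluster 6 made up 6.15% to 17.9% of OB-like cells of a mouse with no separation of the genotypes, and without it the log2 fold change was 0.93 (adjusted p = 0.023). The share of OB-like cells with an Omd UMI was 14.7% to 32.1% in controls and 31.4% to 41.2% in mutants, and 4.81% to 12.2% against 10.5% to 14.0% after thinning to 2000 UMIs.

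**Figure D4:**
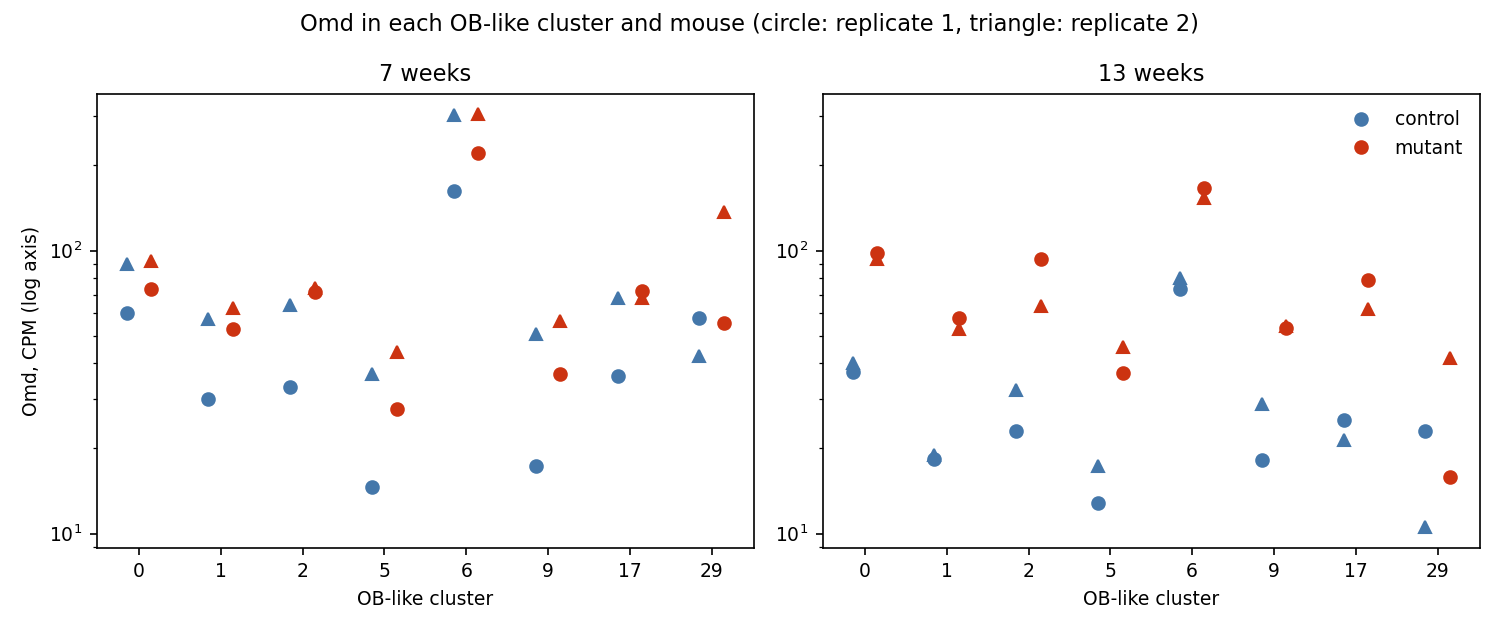
Omd level in each mouse (CPM, logarithmic y axis) in each of the 8 OB-like clusters at 7 and at 13 weeks, with controls and mutants in different colours. Cluster 6 is highest in controls (mean 154 CPM), and at 13 weeks the genotypes overlap only in cluster 29.

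Markers of other cells were summed in OB-like cells beside this result. The Sca1+ MSC list was at 680 to 709 CPM in controls and 737 to 785 CPM in mutants, with 5 of 11 tested genes above 0 and 1 called (Col3a1, higher), and the preosteoblast list was at 1752 to 1975 against 1814 to 2002 CPM (6 of 14 above 0, 1 called higher and 1 lower). The macrophage or osteoclast list was at 96.1 to 132 CPM in controls and 141 to 187 CPM in mutants without overlap (3 of 4 tested genes above 0, none called). The tendon or ligament list was at 24.3 to 71.8 against 45.9 to 77.3 CPM (4 of 4 genes above 0, 1 called higher). The pericyte list was at 50.1 to 76.5 against 72.4 to 97.8 CPM (2 of 11 above 0, 1 called higher). Other lists leaned lower. The GPC list was at 3858 to 6037 CPM in controls and 2208 to 4804 CPM in mutants (4 of 15 above 0, none called), and the haematopoietic progenitor list at 4.40 to 6.48 against 3.09 to 5.24 CPM (0 of 7 above 0, 1 called lower). Omd itself was low in the blood cells, with a higher mutant value in each pair there. In haematopoietic progenitor-like cells it was at 0.526 to 5.50 CPM in controls and 1.16 to 26.1 CPM in mutants, higher in 4 of 4 pairs (1.33 ± 0.77, adjusted p = 0.902). In granulocyte or monocyte-like cells it was at 0.751 to 3.71 against 3.72 to 17.3 CPM, without overlap but from 15 and 38 UMIs. Only 4 of the 10 members passed the filter on low counts in those cells, and no fold change of Omd is given for them. The part of these cells and of free RNA in the Omd difference was not tested. In preOB-like cells, where its control mean is highest, the mutant mice were at 890 to 1010 CPM within the control range of 469 to 1297 CPM, and the log2 fold change was 0.08 ± 0.23 (adjusted p = 0.991). In Lepr+ OP-like cells Omd was at 314, 353, 161 and 256 CPM in controls and 386, 324, 260 and 321 CPM in mutants (0.28 ± 0.17, adjusted p = 0.714). In Lepr+ MSC-like cells Omd was at 24.1, 42.0, 17.6 and 21.1 CPM in controls and 59.4, 46.7, 29.6 and 43.0 CPM in mutants (0.83 ± 0.20, adjusted p = 0.194), with both mutants above both controls at each age. It missed the threshold in the main fit and passed with the replicate block (0.84, adjusted p = 0.0352).

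Aspn in preOB-like cells was the other called member. The controls were at 92.6 and 103 CPM at 7 weeks and 26.1 and 39.9 CPM at 13 weeks, and the mutants at 112 and 195 CPM at 7 weeks and 61.6 and 311 CPM at 13 weeks, so that the mutants lay above the controls of their age and the groups overlapped across ages. The log2 fold change was 1.55 ± 0.32 (adjusted p = 0.0204). It rests on few cells. At 13 weeks 20, 15, 24 and 71 UMIs came from 4, 4, 4 and 6 cells, and 42 of the 71 in mutant replicate 2 came from 1 cell. Without that mouse the log2 fold change was 0.80 (adjusted p = 0.386), without control 7 weeks replicate 1 it was 1.5 (0.0634), and without control 13 weeks replicate 1 it was 1.37 (0.088). DESeq2 gave an adjusted p of 0.51, and clusters made without integration gave 0.37 (adjusted p = 0.819). The Sca1+ MSC list led the Col3a1+ stromal cluster, where Aspn is highest. In preOB-like cells this list was at 2164 to 3300 CPM in controls and 3718 to 5422 CPM in mutants (8 of 14 genes tested, 5 above 0, none called). The pericyte list there was at 49.8 to 117 against 30.6 to 110 CPM. The part of such cells in the Aspn difference was not tested.

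In Lepr+ MSC-like cells Aspn was at 3.68, 3.19, 2.24 and 1.95 CPM in controls and 4.67, 7.50, 9.15 and 34.9 CPM in mutants. All mutants were above all controls, and the log2 fold change was 2.10 ± 0.43 (adjusted p = 0.104, 2.01 and 0.0125 with the replicate block), but all 109 UMIs of the highest mouse were in 1 cell of 664. In the types where Aspn is high, Col3a1+ stromal and pericyte-like, the log2 fold changes were 0.32 ± 0.36 and 0.19 ± 0.20 (adjusted p = 0.994 and 1).

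Neither Dcn nor Bgn passed the test without the replicate block in OB-like cells. Dcn was at 5773, 5344, 5097 and 5759 CPM in controls and 7127, 6355, 7121 and 6023 CPM in mutants, and all mutants lay above all controls, yet the difference, 0.28 ± 0.13 on the log2 scale, missed the threshold (adjusted p = 0.483). Dcn also separated in Lepr+ MSC-like cells, at 343 to 521 CPM in controls and 524 to 763 CPM in mutants (0.55 ± 0.17, adjusted p = 0.357, 0.0272 with the replicate block). It was higher in 4 of 4 pairs, with overlap, in hypertrophic GPC-like (463 to 1161 against 678 to 1422 CPM) and endothelial-like cells (121 to 203 against 167 to 262 CPM). In preOB- and GPC-like cells it was higher in 3 of 4 pairs, in Lepr+ OP-like cells in 2 of 4. In pericyte-like cells it was higher in 1 of 4 and in Col3a1+ stromal cells in 2 of 3. Bgn in OB-like cells was at 2319, 2400, 2690 and 2213 CPM in controls and 2722, 2689, 3229 and 2775 CPM in mutants, higher in 4 of 4 pairs (0.25 ± 0.13, adjusted p = 0.522, 0.0433 with the block). In haematopoietic progenitor-like cells Dcn was at 80.7 to 217 CPM in controls and 54.9 to 554 CPM in mutants (higher in 2 of 4 pairs, both mutants lower at 13 weeks). In granulocyte or monocyte-like cells it was at 39.6 to 134 against 111 to 1038 CPM (higher in 4 of 4 pairs, 2.26 ± 0.66, adjusted p = 1). Bgn was at 64.8 to 118 against 56.1 to 311 CPM in haematopoietic progenitor-like cells (higher in 2 of 4 pairs, both mutants lower at 13 weeks). It was at 47.3 to 85.0 against 103 to 456 CPM in granulocyte or monocyte-like cells, without overlap (2.01 ± 0.47, adjusted p = 1). The part of free RNA in the Dcn and Bgn differences was not tested. In pericyte-like cells the mutant at 13 weeks with 3309 CPM of Dcn owed 311 of its 320 UMIs to 1 of 17 cells.

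Ogn in OB-like cells was at 2.41, 2.40, 4.22 and 3.08 CPM in controls and 2.61, 2.97, 8.73 and 6.0 CPM in mutants, with the mutants above the controls at each age. Its log2 fold change, 0.61 ± 0.16, missed the threshold (adjusted p = 0.114, 0.00684 with the block), and the control level is near the background. Lum in preOB-like cells was higher in mutants at each age, with 2780, 3309, 2201 and 2668 CPM in controls and 3870, 3713, 3916 and 2887 CPM in mutants (0.40 ± 0.20, adjusted p = 0.699). In OB-like cells Lum overlapped, and the log2 fold change was -0.07 ± 0.17 (adjusted p = 0.94). Prelp in Lepr+ OP-like cells was at 7.67 and 8.91 CPM in controls and 6.73 and 7.16 CPM in mutants at 7 weeks, and at 6.83 and 6.27 against 11.4 and 19.6 CPM at 13 weeks. The mutants thus lay below the controls at 7 weeks (-0.24 ± 0.36, adjusted p = 1) and above them at 13 weeks (1.24 ± 0.33, adjusted p = 0.277, 0.0381 with the block).

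No cartilage member was called by genotype where it is high. In GPC-like cells the log2 fold changes over both ages were -0.05 ± 0.14 for Fmod, -0.26 ± 0.18 for Prelp, -0.14 ± 0.17 for Epyc and 0.22 ± 0.18 for Chad, and in hypertrophic GPC-like cells they were -0.27 ± 0.19, -0.41 ± 0.18, -0.27 ± 0.18 and -0.06 ± 0.16, each with an adjusted p of 1. Chad was at 2006, 1753, 5457 and 3469 CPM in control and 2609, 1990, 4289 and 5571 CPM in mutant GPC-like cells. At 7 weeks 0 of the 80 fits were called by edgeR or DESeq2 (5 at an unadjusted p under 0.05, against 3.91% of the fits of all genes), and at 13 weeks 1 by edgeR and 3 by DESeq2 (12 unadjusted, against 4.69%). The background at 7 weeks was 0.116% of genes called in OB-like, 0.15% in preOB-like, 0.212% in Lepr+ OP-like, 0.00866% in Lepr+ MSC-like cells and 0% in the other 5 types. At 13 weeks it was 0.28% in OB-like, 0.115% in preOB-like and 0.168% in Lepr+ OP-like cells and 0% in the other 6 types. The genotype effect differed between ages in 0 fits (11 unadjusted, against 2.07%, lowest adjusted p = 0.76; the difference was tested with edgeR alone), against a background of 0% in all 9 types. Over the members tested the median log2 fold change ran from -0.11 in hypertrophic GPC-like cells (6 of 9 below 0), 0.02 in endothelial-like and 0.03 in GPC-like cells, through 0.15, 0.17 and 0.19 in Lepr+ OP-, OB- and preOB-like cells, to 0.32, 0.35 and 0.40 in Col3a1+ stromal, Lepr+ MSC-like and pericyte-like cells. Over all genes it lay between -0.011 and 0.026 in these types.

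Most calls among the members came with age, and 6 of them in the growth plate. From 7 to 13 weeks, over both genotypes, 8 fits were called higher and 3 lower of 80 (33 unadjusted, against 13.9% of the fits of all genes). The calls were Chad, Dcn and Omd (higher) and Fmod (lower) in hypertrophic GPC-like cells, Chad and Omd (higher) in GPC-like cells, Chad and Ogn (higher) in OB-like cells, Chad (higher) in Lepr+ MSC-like cells, Fmod (lower) in preOB-like cells and Bgn (lower) in endothelial-like cells. The background was 7.43% of genes called in hypertrophic GPC-like, 3.69% in GPC-like, 2.06% in OB-like, 0.303% in Lepr+ MSC-like, 1.43% in preOB-like and 3.03% in endothelial-like cells, and in the types without a called member 0.822% in Lepr+ OP-like, 0.257% in pericyte-like and 0% in Col3a1+ stromal cells. The 2 ages were separate sets of mice, and age, litter and day of collection cannot be told apart.

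In hypertrophic GPC-like cells Chad was at 3681, 3286, 3420 and 3142 CPM in the 4 mice of 7 weeks and at 8037, 6428, 6141 and 7926 CPM in those of 13 weeks, a log2 fold change of 1.08 ± 0.16 (adjusted p = 0.00221). Dcn was at 463, 644, 678 and 774 CPM and then at 1152, 1161, 1358 and 1422 CPM (1.00 ± 0.15, adjusted p = 0.00221). Omd was at 14.98 to 18.2 CPM and then at 28.2 to 38.1 CPM (0.94 ± 0.14, adjusted p = 0.00221). None of these 3 overlapped between ages, and all 3 held without any 1 mouse. Omd was not called with finer clusters (0.53, adjusted p = 0.514), where 1205 cells kept the hypertrophic GPC-like name. Fmod went the other way, from 912, 899, 740 and 545 CPM to 386, 469, 543 and 287 CPM (-0.86 ± 0.19, adjusted p = 0.0196), and lost the call without control 13 weeks replicate 1 (-0.79, 0.0746) or mutant 13 weeks replicate 2 (-0.66, 0.0831). Bgn, Lum, Prelp and Epyc were not called in these cells, with log2 fold changes of -0.29, 0.39, -0.33 and -0.28.

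**Figure D5:**
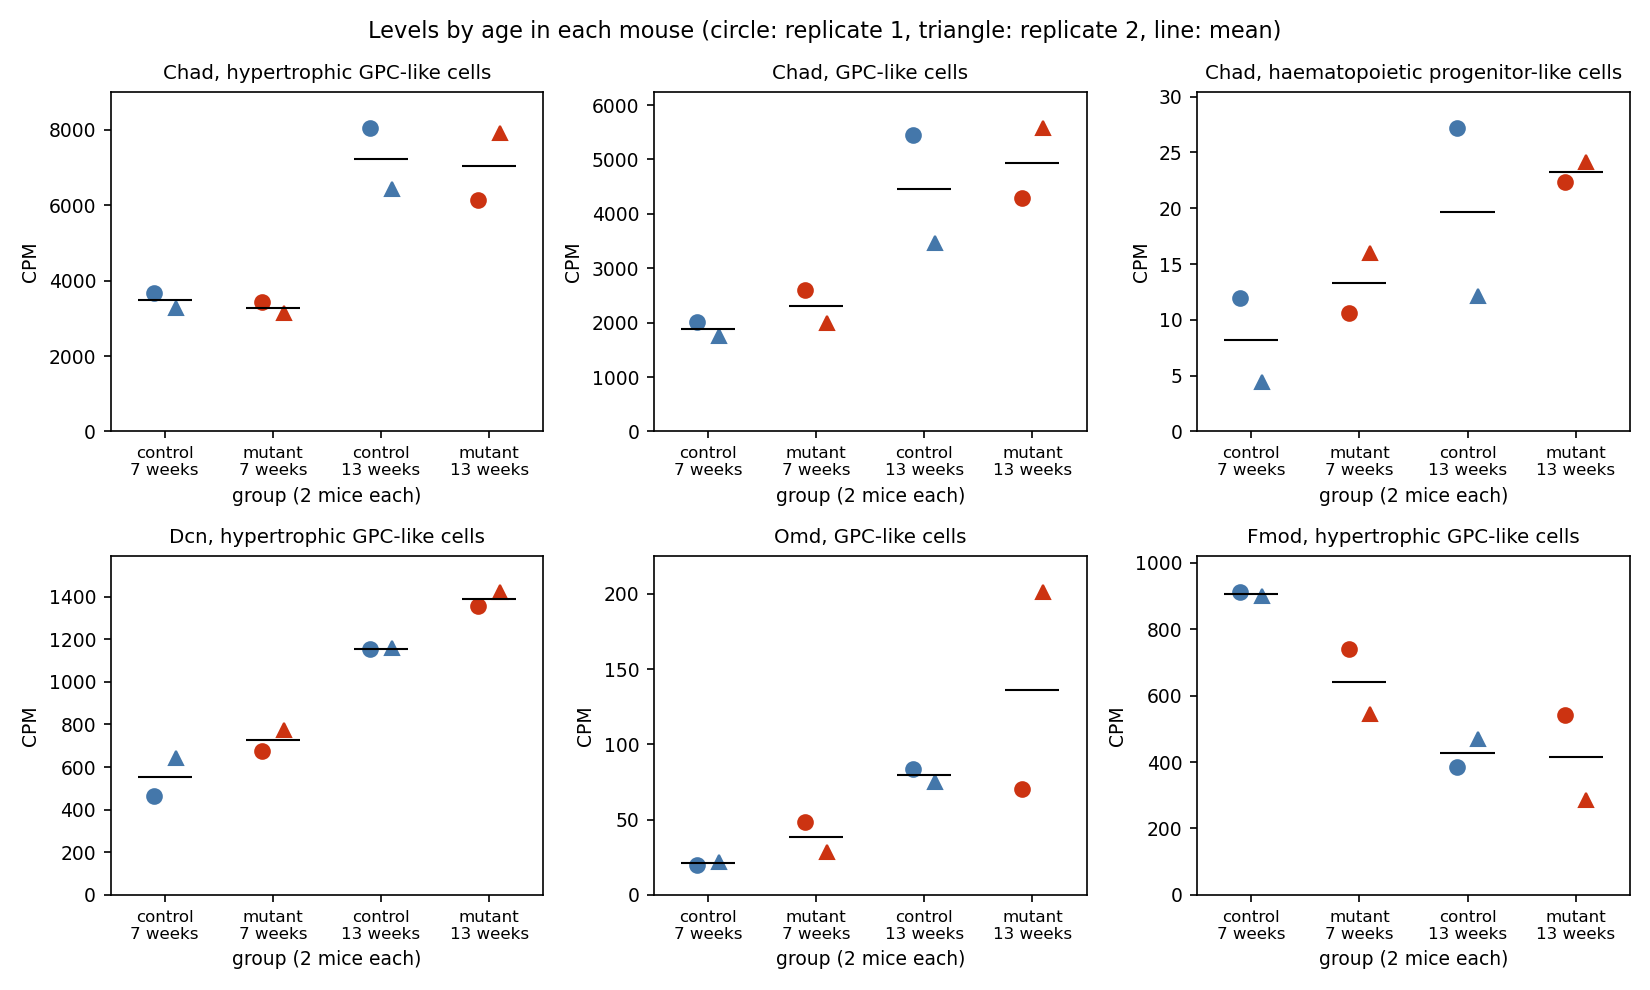
Level in each mouse (CPM, y axis from 0) at 7 and 13 weeks, with controls and mutants in different colours, for Chad in hypertrophic GPC-like, GPC-like and haematopoietic progenitor-like cells, Dcn and Fmod in hypertrophic GPC-like cells and Omd in GPC-like cells. Chad rises with age in both growth plate types, while its level in haematopoietic progenitor-like cells runs from 4.40 to 27.2 CPM.

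In GPC-like cells Chad was at 1753 to 2609 CPM at 7 weeks and 3469 to 5571 CPM at 13 weeks (1.17 ± 0.18, adjusted p = 0.0044). Omd was at 20.1, 21.8, 48.3 and 28.3 CPM and then at 83.8, 75.2, 70.3 and 201 CPM (1.85 ± 0.28, adjusted p = 0.00477). Both separated the ages and held without any 1 mouse. The hypertrophic marker list in hypertrophic GPC-like cells was at 30058 to 37019 CPM at 7 weeks and 21792 to 25680 CPM at 13 weeks, with 3 of its 10 genes called higher and 3 lower, and in GPC-like cells it was at 2765 to 3082 and 2408 to 4131 CPM. The preosteoblast list in GPC-like cells was at 1422 to 1550 and 1652 to 1928 CPM. Their part in these differences was not tested.

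Outside cartilage the age calls of Chad were made at low levels. It was at 7.20 to 11.1 CPM at 7 weeks and 13.9 to 23.5 CPM at 13 weeks in OB-like cells, and at 7.98 to 17.3 and 27.5 to 44.5 CPM in Lepr+ MSC-like cells, against 4.40 to 16.0 and 12.1 to 27.2 CPM in haematopoietic progenitor-like cells. In OB-like cells Chad had a log2 fold change of 1.14 ± 0.19 (adjusted p = 0.0169) and in Lepr+ MSC-like cells of 1.29 ± 0.23 (adjusted p = 0.04), while in haematopoietic progenitor-like cells it was 0.96 ± 0.29 (adjusted p = 0.977) and in the growth plate types 1.08 and 1.17. The part of free RNA in these calls was not tested. The OB-like call was lost without control 7 weeks replicate 2 (adjusted p = 0.0575), mutant 7 weeks replicate 2 (0.051) or mutant 13 weeks replicate 1 (0.0579), and the Lepr+ MSC-like call without 5 of the 8 mice (adjusted p up to 0.162). Ogn in OB-like cells had a log2 fold change of 1.01 ± 0.16 with age (adjusted p = 0.0154) from levels of 2.40 to 2.97 CPM to levels of 3.08 to 8.73 CPM, and it was not called without control 7 weeks replicate 2 (0.0573), control 13 weeks replicate 1 (0.0513) or mutant 13 weeks replicate 1 (0.0513). OB-like cluster 6, where Ogn was highest, made up 17.9% and 13.1% of the OB-like cells of the last 2 mice. In the other mice its share was 6.15% to 11.5%. No age result for Ogn without cluster 6 is given here.

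Of the lower members, Fmod in preOB-like cells had a log2 fold change of -1.06 ± 0.24 (adjusted p = 0.0281), lost without control 7 weeks replicate 2 (-0.85, 0.0943) or mutant 13 weeks replicate 2 (-0.80, 0.119). Bgn in endothelial-like cells went from 572, 620, 647 and 676 CPM to 455, 399, 382 and 358 CPM, with no overlap (-0.66 ± 0.14, adjusted p = 0.0199). This call was lost without any of 5 mice, namely control 7 weeks replicate 2 or any mouse of 13 weeks, with adjusted p from 0.0501 to 0.0958. Of the 9 members tested in endothelial-like cells, 6 were below 0 with age (median -0.66). In haematopoietic progenitor-like cells 5 of 6 were below 0 (median -0.79). The part of free RNA in the Bgn difference with age was not tested.

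The partners of the SLRPs were read from lists. Of 94 genes listed (other SLRPs, neighbours at the loci, enzymes that build and sulphate the chains, proteases, collagens, cross-linking enzymes, receptors and growth factors, and the targeted genes), 5 were called over both ages in 9 results, 2 higher and 7 lower. In a type 0% to 1.36% of all genes were called. Sox4 and Sox12 gave 6 of these, all lower. Col3a1, a fibril collagen, rose in OB-like cells from 30.5 ± 16.0 to 70.8 ± 29.6 CPM (1.31 ± 0.24, adjusted p = 0.0302). Col3a1 is also on the Sca1+ MSC list, and its control mean in Col3a1+ stromal cells was 17346 CPM. That type held 9, 40, 14 and 36 cells in control and 25, 161, 117 and 32 cells in mutant mice. The part of carried-over stromal RNA in the Col3a1 rise was not tested. Col2a1, the main collagen of cartilage, fell in preOB-like cells from 614 ± 356 to 297 ± 59.7 CPM (-0.85 ± 0.19, adjusted p = 0.0381). The GPC marker list in preOB-like cells was at 922 to 1814 CPM in controls and 621 to 1014 CPM in mutants (12 tested, 5 above 0, 1 called higher and 1 lower), and the part of carried-over cartilage RNA was not tested. Loxl4, which cross-links collagen, rose in Lepr+ OP-like cells from 4.98 ± 2.28 to 11.1 ± 1.00 CPM (1.25 ± 0.24, adjusted p = 0.0192). None of the 8 other SLRPs, the 6 linkage enzymes, the 14 chondroitin or dermatan sulphate enzymes or the 10 keratan sulphate enzymes was called over both ages by edgeR in any of the 9 types. The same holds for the 6 locus neighbours with Cenpp, the 2 tyrosine sulphation enzymes, the 9 proteases and the 18 receptors and growth factors. Over these 73 genes 40 of 501 fits had an unadjusted p under 0.05, the lowest adjusted p was 0.0558, and DESeq2 was not run on the lists.

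With age, some partners moved in growth plate cells beside Chad and Omd. Of the other SLRPs, 1 was called in each growth plate type, higher at 13 weeks. It was Ecm2, named here after its values were seen, which encodes a leucine-rich matrix protein, with log2 fold changes of 1.37 ± 0.24 in hypertrophic GPC-like cells (adjusted p = 0.00602) and 1.39 ± 0.31 in GPC-like cells (adjusted p = 0.0294). In hypertrophic GPC-like cells, where 7.43% of all genes were called, 1 of 14 tested chondroitin or dermatan sulphate enzymes was higher and 2 were lower, 3 of 8 cross-linking enzymes and 2 of 7 proteases were lower, and 1 of 6 locus neighbours and 1 of 15 receptors and growth factors were higher. In GPC-like cells, where 3.69% were called, 2 of 13 chondroitin or dermatan sulphate enzymes and 2 of 8 cross-linking enzymes were lower, 2 of 6 keratan sulphate enzymes were higher, and of 7 proteases 1 was higher and 1 lower. Over all 9 types edgeR called 0 of 44 fits with age for the linkage enzymes (4 at an unadjusted p under 0.05), 0 of 17 for the tyrosine sulphation enzymes (4 unadjusted) and 2 of 90, both lower, for the collagens. The age calls were 3 higher and 6 lower of 69 fits for the proteases, and 4 higher and 5 lower of 132 for the receptors and growth factors, where 0% to 7.43% of all genes were called in a type.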

How the data were processed

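Libraries were made with a droplet 3′ kit. The authors deposited filtered gene-by-barcode matrices of UMI counts (Cell Ranger 6.1.2 per the file headers, mm10 and Seurat 4.3 per the submitters' processing notes), 1 per mouse and not normalized; how intronic reads were counted is not given in the sources used here. The members and all gene lists were chosen with earlier results of these data known.

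Barcodes with 200 to 6000 genes and at most 10% mitochondrial UMIs were kept, simulated doublets were used to remove 9.67% to 11.3% of them, and cells were integrated (Seurat 5.3.0, 2000 variable genes without the members, other SLRPs or SOXC genes, 30 components) and clustered (leidenalg 0.10.2, resolution 1) into 39 clusters. Clusters were named from marker lists, needing at least 3 markers; clusters whose median depth was under 33.3% of that of their library were set aside. The names of the preOB-like and Col3a1+ Igfbp6+ stromal clusters were settled after the clusters were seen. So was the rule that keeps apart a cluster holding every proliferation marker. A cluster of 471 cells named proliferating growth plate chondrocyte-like stayed outside the GPC-like type.

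For each cell type the UMIs of a mouse were added up (at least 10 cells) and tested with edgeR 4.0.16 (quasi-likelihood, TMM scaling, filter on low counts, 4 groups in 1 fit, Benjamini-Hochberg adjustment over all genes of that type; 4 residual degrees of freedom). CPM are UMIs per 1000000 UMIs of that sum after TMM scaling. Sums ranged from 36566877 to 77322151 UMIs in OB-like and from 226630 to 2333397 in preOB-like cells. The tests were first checked on simulated counts. Genes named besides the members are the targeted genes, list genes called over both ages (at most 15) and the 3 genes nearest to each member by Pearson's r of log2(mean control CPM + 5), among genes of at least 20 CPM in some type. All 10 member IDs matched the mouse annotation on GRCm38.

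The labels number the mice 1 and 2 in each group. Deviations from group means of same-numbered mice correlated at both ages above 0.1 in OB-like (0.41 and 0.38), Lepr+ OP-like (0.28 and 0.24) and Lepr+ MSC-like cells (0.30 and 0.18). The same held in endothelial-like (0.26 and 0.15), haematopoietic progenitor-like (0.23 and 0.12) and granulocyte or monocyte-like cells (0.29 and 0.20). In these types the number was read as a possible pair, and in the other types mice shared only a number. The main tests held no term for the pair in any type, and only the replicate block did. Mutants and controls were littermate sisters per the study's methods, but the labels do not say whether a shared number marks sisters, and replicate 1 libraries were the deeper ones in every group. Alternatives were DESeq2 1.42.0, another scaling, no filter on low counts, the replicate block, leaving out each mouse, other cell filters, resolution 1.5 and no integration.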

Additional observations from a re-analysis of the deposited data

Results flagged for a closer look

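Bgn was found outside the compared cell types, in a cluster of very low depth led by the Sca1+ MSC list (cluster 34, 56 cells from 5 libraries), at 4139 CPM from 431 pooled UMIs, above its highest mean in a control cell type (3354 CPM, Col3a1+ Igfbp6+ stromal). The cells were set aside for their depth and mix the groups. The pooled value is not TMM-scaled, unlike the control mean. With finer clusters a shallow cluster of 56 cells held 9 of 14 Sca1+ MSC and 12 of 15 GPC markers. The difference was not tested. Groups of 2 mice are too small to single out 1 mouse from the others of its group, and no member differed between ages in its genotype effect past the threshold.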

How the results depend on the processing

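Counts of members called per cell type were recomputed under each alternative. With the replicate block, calls over both ages became 3 in OB-like, 3 in Lepr+ MSC-like and 1 in Col3a1+ stromal cells, at 13 weeks 2 in OB-like and 1 in each of preOB-, Lepr+ OP- and Lepr+ MSC-like cells, and at 7 weeks 1 in Col3a1+ stromal cells; the block changed no other count. The Col3a1+ stromal calls were Chad, at 2.31 and 3.37, in a type where mice shared only a number and the 7-week controls were 1 mouse, assumed to vary like the other groups; the controls held 12 Chad UMIs in all. Without a filter on low counts, calls over both ages were 2 in OB-like, 2 in Lepr+ MSC-like and 1 in each of Col3a1+ stromal, GPC-like and pericyte-like cells; at 13 weeks 2 in OB-like, 3 in pericyte-like and 1 in each of preOB-, Lepr+ OP- and Lepr+ MSC-like cells; and with age 5 in OB-like, 2 in preOB-like, 1 in Lepr+ OP-like, 4 in Lepr+ MSC-like, 4 in GPC-like, 1 in pericyte-like and 6 in endothelial-like cells. DESeq2 called 0 in preOB-like and 1 in Lepr+ MSC-like cells over both ages, 2 in OB-like and 1 in Lepr+ MSC-like cells at 13 weeks, and with age 4 in OB-like, 1 in Lepr+ OP-like, 2 in Lepr+ MSC-like and 2 in endothelial-like cells. Finer clusters gave 1 in OB-like and 4 in Lepr+ OP-like cells with age and held no preOB-like cluster. Without integration age calls were 1 in Lepr+ OP-like and 0 in Lepr+ MSC-like cells; a mitochondrial limit of 5% gave 0 in Lepr+ MSC-like and 2 in Col3a1+ stromal cells, and a minimum of 2000 UMIs gave 0 in Lepr+ MSC-like cells. These settings also change the share of all genes called per type. Over both ages the block called 0% to 8.44%, no filter 0.169% to 3.46% and DESeq2 0.00941% to 2.61%. At 13 weeks these were 0% to 2.71%, 0.114% to 1.64% and 0.00919% to 0.875%, and with age no filter called 0.318% to 7.22% and DESeq2 0.0387% to 5.9%. At 7 weeks the block called 0% to 2.05%, and 0.329% in Col3a1+ stromal cells. For finer clusters, no integration, the other cell filters and left-out mice the share is not given here. Those counts of members therefore have no background beside them.

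Leaving out each mouse, calls over both ages ranged from 0 to 1 in OB-, preOB- and Lepr+ MSC-like cells and from 0 to 2 in Col3a1+ stromal and pericyte-like cells. At 13 weeks they ranged from 0 to 1 in OB-, preOB- and Lepr+ MSC-like and from 0 to 3 in Col3a1+ stromal and pericyte-like cells. With age they ranged from 0 to 3 in OB-like and endothelial-like, 0 to 1 in preOB-, Lepr+ OP- and pericyte-like, 0 to 2 in Lepr+ MSC-like and Col3a1+ stromal, 3 to 4 in hypertrophic GPC-like and 2 to 3 in GPC-like cells. Fold changes were followed for member and type pairs called in at least 1 setting: 743 alternatives kept direction and side of the threshold, 90 passed it newly, 38 lost it and 11 turned direction. The last were Fmod over both ages (0.54) and Aspn with age (1.06) in preOB-like cells and Lum in pericyte-like cells over both ages (-1.11) and at 13 weeks (-1.82), with Dcn there at 13 weeks (-0.011), all under the 5% mitochondrial limit; Fmod with age in Col3a1+ stromal cells without control 13 weeks replicate 2 (-2.13, the range over left-out mice being -2.13 to 1.69); and, in pericyte-like cells without mutant 13 weeks replicate 1, Dcn over both ages (-0.69, range -0.69 to 1.47), at 13 weeks (-0.24, range -0.24 to 4.08) and with age (-0.67, range -0.67 to 1.5) and Lum over both ages (-0.83, range -0.83 to 1.24) and at 13 weeks (-0.72, range -0.72 to 3.42). Of mean control levels, 153 moved by less than 1 SD and 29 by more, among them Omd (414 CPM) and Ogn (72.0 CPM) in preOB-like cells without integration. The setting without OB cluster 6 was chosen after seeing the data. The causes were not tested. Counting error limits the low levels most, such as Aspn and Ogn in OB-like cells.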

Other observations

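Clusters outside the compared types held SLRPs as well. A cluster named proliferating growth plate chondrocyte-like (cluster 24, 471 cells) was at 2065 CPM for Bgn, 1257 CPM for Dcn, 1211 CPM for Chad, 1100 CPM for Prelp, 864 CPM for Fmod, 617 CPM for Lum and 322 CPM for Epyc when all its cells were pooled. That name may cover several lineages. With finer clusters the cluster of this name (492 cells) also held 8 of 12 endothelial and 10 of 10 Lepr+ OP markers. Without integration it had 81 cells, beside a shallow proliferating cluster of 333 cells with 10 of 10 Lepr+ OP markers. An osteoblast cluster of very low depth (cluster 10, 2311 cells) was at 6159 CPM for Dcn. In the shallow cluster 34 Fmod was at 1258 CPM, Aspn at 384 CPM and Prelp at 259 CPM. These are pooled values over libraries of all 4 groups, with no TMM scaling and no spread over mice.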
